A study of Mus musculus with 8 samples.

Results

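Genes for skin lipid hydrolases, 9 of the 21690 genes in the expression table, were followed in mouse epidermis with and without Cre-driven deletion in Esrp1. The genes were 2 patatin-like lipases (Pnpla5 and Pnpla3), 2 relatives of arylacetamide deacetylase (Aadacl3 and Aadacl4), the carboxylesterase gene Ces4a, and 4 phospholipase A2 genes (Pla2g3, Pla2g2e, Pla2g2f and Pla2g4e). They were chosen by their measured TPM in experimental against control libraries, so those differences are given as a description and carry no test. Experimental pups were K5rTA tetOCre Esrp1flox/flox; Esrp2-/-, and control pups were Esrp1flox/flox; Esrp2-/- without the transgenes. Both groups therefore lacked Esrp2, and the mothers of both were fed doxycycline chow from embryonic day 17 to postnatal day 5, when back-skin epidermis was taken. The comparison covers the added Cre-driven deletion in keratin 5 cells together with any effect of the transgenes. Each group had 4 libraries, called biological replicates in the labels, which do not say whether pups shared a litter, so p-values measure the spread between these libraries. Gene positions are those of GENCODE M21 on GRCm38.

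Expression was given as TPM, a length-corrected share of all transcripts, and an entry at or under 1 TPM was listed at 0. Libraries are numbered in the order of the table, and sequencing depth is unknown because TPM does not keep it. Esrp1 itself stood at 65.0, 49.8, 75.6 and 66.5 TPM in experimental libraries, against 135, 131, 133 and 162 TPM in control libraries (log2 change -1.13, SE 0.17, limma adjusted p = 0.0112). Reads over the whole gene do not isolate the deleted part. Esrp2, which both groups lack by genotype, read 3.25 to 5.28 TPM in experimental libraries and from 0 to 3.31 TPM in controls. The mitochondrial share of TPM was 18.2% in experimental library 2 and 17.5% in experimental library 4, and between 10.6% and 12.6% elsewhere. The 6 suprabasal keratinocyte markers summed to between 64190 and 80059 TPM in experimental libraries and between 36492 and 57051 TPM in controls. The 6 basal keratinocyte markers all had a lower mean in experimental libraries, where they summed to between 1715 and 2951 TPM, against a wide range of 905 to 7952 TPM in controls. The 5 melanocyte markers summed to between 28.1 and 75.6 TPM in experimental libraries and between 32.4 and 143 TPM in controls. Among adipocyte markers 6 of 7, and among mast cell markers 5 of 6, were listed at 0 in all 8 libraries. Fabp4 was the adipocyte marker above 1 TPM, at 71.1 to 276 TPM in experimental libraries and 100.2 to 1129 TPM in controls. The sebaceous list had 10 measured markers, 9 of which had a lower mean in experimental libraries.

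Lipases and esterases release fatty acids from stored or membrane lipids. In skin, patatin-like lipases act on triglycerides and related esters, carboxylesterases and the arylacetamide deacetylase family cleave small and lipid esters, and phospholipases A2 free a fatty acid from phospholipids. Free fatty acids help to acidify and seal the outer epidermis, sebaceous glands produce wax and cholesterol esters, and fatty acids released by phospholipases can be turned into eicosanoids and related lipid signals.

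The largest differences were in Pnpla5, Aadacl4 and Ces4a, each more than 4-fold lower in experimental epidermis by the ratio of mean TPM. Promoter windows of these 3 genes and of the 2 genes that stood higher, Pla2g2f and Pla2g4e, are given first. The RefSeq promoter table (GRCm38.p6) held 8 of the 9 genes, all but Pla2g3. Each window runs from 250 bases before the annotated start to 50 bases after it, 5′ to 3′ on the gene's strand. Capitals mark matches, on either strand, to any of 6 motifs. They were the TATA box, spelled TATAAA, the AP-1 site, spelled TGANTCA, the grainyhead site, spelled AACCNGTT, the C/EBP site, spelled TTGCNNAA, the nuclear receptor half-site, spelled AGGTCA, and the E-box, spelled CACGTG.
Pnpla5, chr15:84123126-84123425, minus strand: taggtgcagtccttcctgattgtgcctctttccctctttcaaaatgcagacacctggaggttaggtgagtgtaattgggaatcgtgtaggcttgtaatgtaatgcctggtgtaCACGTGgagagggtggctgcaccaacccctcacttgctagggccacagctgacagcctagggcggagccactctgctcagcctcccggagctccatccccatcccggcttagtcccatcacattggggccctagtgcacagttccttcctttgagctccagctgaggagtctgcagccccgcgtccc
Aadacl4, chr4:144613457-144613756, plus strand: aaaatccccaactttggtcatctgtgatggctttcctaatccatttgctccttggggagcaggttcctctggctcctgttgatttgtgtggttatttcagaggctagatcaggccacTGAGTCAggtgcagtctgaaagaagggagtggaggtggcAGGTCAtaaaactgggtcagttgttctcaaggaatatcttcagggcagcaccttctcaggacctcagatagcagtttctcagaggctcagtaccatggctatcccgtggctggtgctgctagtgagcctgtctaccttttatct
Ces4a, chr8:105131550-105131849, plus strand: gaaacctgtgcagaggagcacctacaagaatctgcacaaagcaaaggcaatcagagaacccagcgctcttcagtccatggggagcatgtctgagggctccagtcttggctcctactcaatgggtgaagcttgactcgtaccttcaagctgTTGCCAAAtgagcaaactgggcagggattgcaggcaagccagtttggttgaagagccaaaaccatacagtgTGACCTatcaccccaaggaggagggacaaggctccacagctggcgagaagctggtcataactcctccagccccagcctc
Pla2g2f, chr4:138757549-138757848, minus strand: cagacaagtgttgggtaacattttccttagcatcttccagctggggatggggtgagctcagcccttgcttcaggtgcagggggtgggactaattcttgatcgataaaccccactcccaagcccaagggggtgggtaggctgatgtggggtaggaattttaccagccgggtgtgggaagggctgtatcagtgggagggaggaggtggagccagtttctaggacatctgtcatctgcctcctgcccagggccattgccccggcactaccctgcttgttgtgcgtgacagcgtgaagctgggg
Pla2g4e, chr2:120245286-120245585, minus strand: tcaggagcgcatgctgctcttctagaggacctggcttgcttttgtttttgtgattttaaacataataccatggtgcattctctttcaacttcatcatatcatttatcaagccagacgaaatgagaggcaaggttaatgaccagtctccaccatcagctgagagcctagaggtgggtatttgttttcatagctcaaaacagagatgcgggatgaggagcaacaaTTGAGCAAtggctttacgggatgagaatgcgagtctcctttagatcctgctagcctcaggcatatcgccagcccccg

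The 3 genes with the largest differences shared no motif that all of them held. The Pnpla5 window had an E-box starting 137 bases before the start, a motif found in 7.15% of the 32851 promoter windows. The Aadacl4 window had an AP-1 match 133 bases before the start (7.81% of windows) and a nuclear receptor half-site 94 bases before it (16.3% of windows). The Ces4a window had a half-site on the opposite strand, 29 bases before the start, and a C/EBP match 100 bases before it (10.8% of windows). Pla2g4e had a C/EBP match on the opposite strand 27 bases before the start, and Pla2g2f had no match to the 6 motifs. Pla2g2e, whose window is not shown, had AP-1 matches 87 bases before and 27 bases after the start and a half-site 194 bases before it. No window of the 8 genes held the TATAAA letters (13.6% of windows) or the grainyhead letters (2.09% of windows). No matches overlapped each other in these windows, and a match is a description of the letters only.

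Pnpla5 (ENSMUSG00000018868.4, chr15:84112356-84123175, minus strand) encodes a patatin-like triglyceride lipase. It read 2.25, 4.13, 2.05 and 3.60 TPM in experimental libraries, against 28.7, 25.4, 11.7 and 6.24 TPM in control libraries. The groups did not overlap, but controls 3 and 4 lay well below controls 1 and 2. The means were 3.01 ± 1.02 TPM in experimental and 18.0 ± 10.7 TPM in control libraries (SD, n = 4 each), 5.99-fold lower in experimental epidermis. On the log2(TPM + 1) scale the change was -2.07 (SE 0.42). Fewer cells of a type and less RNA per cell cannot be told apart in such bulk epidermis.

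Aadacl4 (ENSMUSG00000070609.3, chr4:144613707-144623398, plus strand) belongs to the arylacetamide deacetylase family of ester hydrolases. Its levels were 5.04, 13.1, 4.42 and 6.02 TPM in experimental libraries and 51.9, 54.5, 23.2 and 18.4 TPM in control libraries. As for Pnpla5, the groups did not overlap, experimental library 2 was the highest of its group, and controls 1 and 2 stood above controls 3 and 4. The experimental mean of 7.15 ± 4.05 TPM was 5.17-fold below the control mean of 37.0 ± 18.8 TPM (SD, n = 4 each).

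Ces4a (ENSMUSG00000060560.8, chr8:105131800-105150109, plus strand) encodes a carboxylesterase. Experimental libraries held 5.36, 13.4, 4.08 and 8.2 TPM, against 45.4, 48.1, 23.8 and 20.4 TPM in control libraries. Its order over libraries was close to that of Aadacl4, with the same pair of controls on top and experimental library 2 highest in its group. The means were 7.77 ± 4.15 TPM in experimental and 34.5 ± 14.4 TPM in control libraries (SD, n = 4 each), or 4.44-fold lower in experimental epidermis. Over the 8 libraries Pearson's r of log2(TPM + 1) was 0.992 between Ces4a and Aadacl4, 0.975 between Pnpla5 and Aadacl4 and 0.967 between Pnpla5 and Ces4a. These values describe points that share libraries and the difference between groups.

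Aadacl3 (ENSMUSG00000078507.1, chr4:144453771-144463756, minus strand), a second gene of the deacetylase family, was near the floor of the table. It was listed at 0 in all 4 experimental libraries and read 1.78, 1.66, 1.16 and 1.49 TPM in control libraries. It was above 1 TPM in controls alone, by a margin of less than 1 TPM, and with a mean under 1 TPM over all libraries it did not enter the fit across genes. The authors' deposited table gave it a log2 fold change of -0.86 (SE 0.20).

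**Figure D1:**
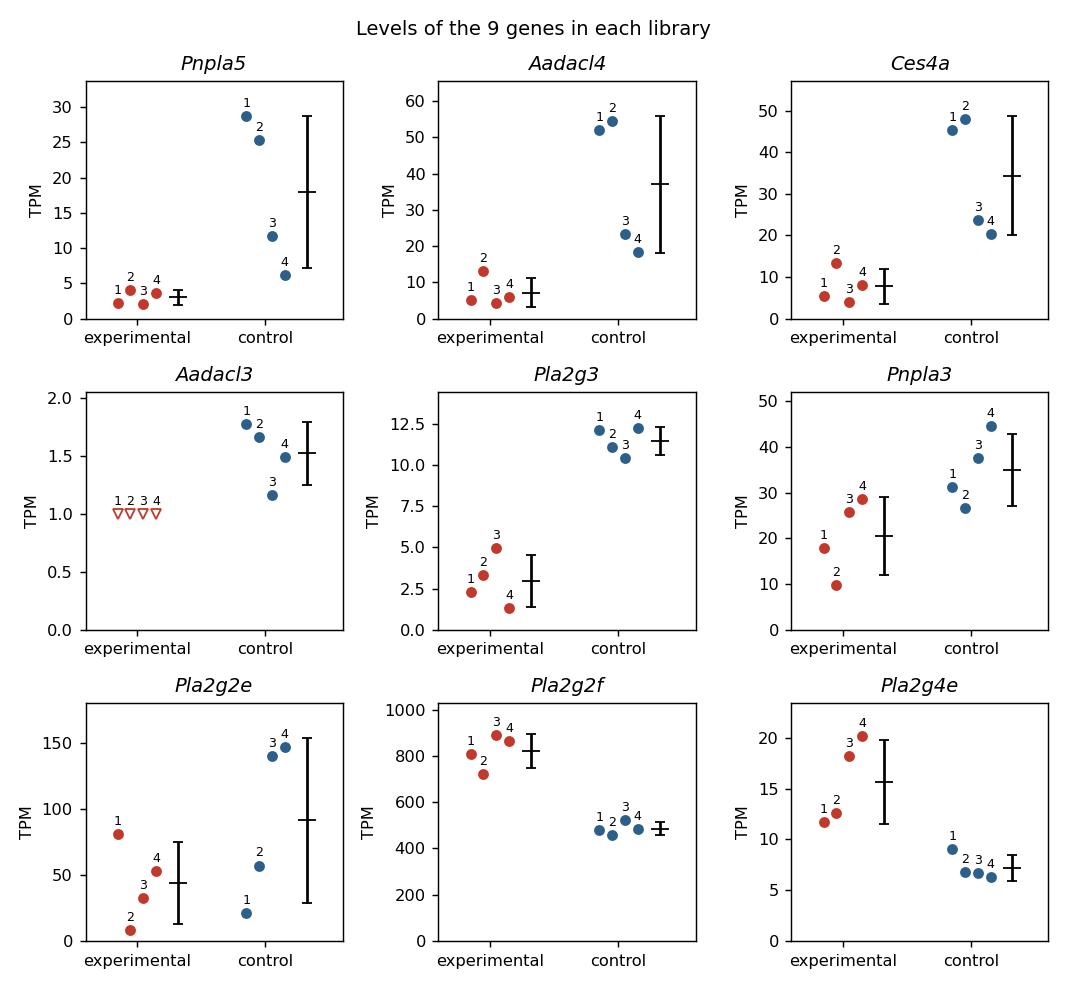
TPM (vertical axes, each from 0) of the 9 genes in the 4 experimental libraries (left, red) and the 4 control libraries (right, blue); small numbers name libraries, open triangles mark entries listed at 0 and drawn at 1 TPM, and black bars are mean ± SD. Pnpla5, Aadacl4, Ces4a, Aadacl3 and Pla2g3 lay lower in every experimental library, Pla2g2f and Pla2g4e lay higher, and Pnpla3 and Pla2g2e overlapped.

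Sebaceous gland and basal keratinocyte marker sums, like Pnpla5, Aadacl4 and Ces4a, were higher in controls 1 and 2 than in controls 3 and 4. The 10 sebaceous markers summed to 266, 226, 221 and 225 TPM in experimental libraries and to 629.8, 568, 290.0 and 299 TPM in controls. Of the 10 markers 1, Elovl3, passed the test. Elovl3 did not share the pairing of the sum, at 64.1, 63.8, 49.8 and 69.3 TPM in controls 1 to 4. Neither did Mc5r, at 4.33, 6.46, 6.17 and 8.77 TPM in the same controls. One listed marker, 4833423E24Rik (Fads2b in RefSeq), was left out in a second sum chosen after seeing that it was nearly level. Without it the remaining 9 summed to between 119 and 177 TPM in experimental libraries and between 208 and 539 TPM in controls. Per 1000 TPM of the 10 markers Aadacl4 was at 31.0 ± 18.5 TPM in experimental libraries, against 79.9 ± 14.2 TPM in controls (SD, n = 4 each), and the groups did not overlap. Per 1000 TPM of the 9 markers it was at 49.5 ± 26.1 TPM in experimental libraries, against 102 ± 12.6 TPM in controls, and the groups overlapped through experimental library 2. Ces4a behaved alike in both scalings, with 33.6 ± 19.0 TPM against 76.8 ± 7.86 TPM per 1000 TPM of 10 markers in experimental and control libraries and overlap with 9 markers. Pnpla5 did not overlap in either scaling, at 21.1 ± 7.31 TPM per 1000 TPM of 9 markers in experimental libraries and 48.0 ± 12.4 TPM in controls. The gap was narrow, with experimental libraries 2 and 4 at 27.5 and 26.9 TPM and control 4 at 29.6 TPM. Pla2g3 overlapped in both scalings, at 21.5 ± 14.3 TPM per 1000 TPM of 9 markers in experimental libraries and 38.4 ± 18.3 TPM in controls. The 6 basal keratinocyte markers summed to 2111, 1715, 2951 and 1982 TPM in experimental libraries and to 7952, 6802, 2783 and 905 TPM in controls. Controls 1 and 2 again stood above controls 3 and 4, but the groups overlapped, and control 4 lay below every experimental library. Among experimental libraries the basal sum was lowest in library 2, where Pnpla5, Aadacl4 and Ces4a were highest. The sebaceous sum was highest in experimental library 1. Of the 6 basal markers 1, Krt15, passed the test, at 108 ± 49.9 TPM in experimental and 877 ± 497 TPM in control libraries (SD, n = 4 each). Limma gave it an adjusted p of 0.0361 for a log2 change of -2.82 (SE 0.59). The part of sebaceous or basal cell content in these differences was not tested.

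**Figure D2:**
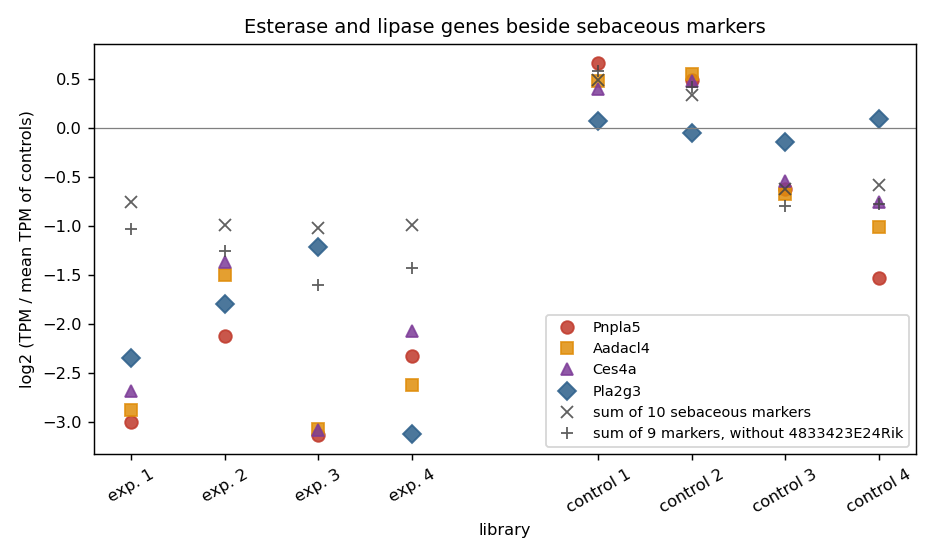
Level of Pnpla5, Aadacl4, Ces4a and Pla2g3 and of the summed sebaceous markers in each library, as log2 of TPM over the mean of the 4 controls (vertical axis), for experimental libraries 1 to 4 (left) and control libraries 1 to 4 (right). Pnpla5, Aadacl4 and Ces4a were lower in controls 3 and 4 than in controls 1 and 2, as the marker sums were, while Pla2g3 was nearly level among controls.

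The genes of mean TPM at least 5 whose levels were most like those of the 3 genes, out of 7440 compared, included further sebaceous and deacetylase family genes. For Aadacl4 these were Gm5538, named Aadacl2fm2 in RefSeq (r = 0.995 over 8 libraries), and Awat2, a wax ester synthase gene (r = 0.984). For Ces4a they were Gm5538 again (r = 0.993) and Dgat2l6, a gene of the diacylglycerol acyltransferase family (r = 0.985). For Pnpla5 they were Sec14l4, which encodes a lipid-binding protein (r = 0.986), and Pank1, a pantothenate kinase gene of coenzyme A synthesis (r = 0.981).

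Pla2g3 (ENSMUSG00000034579.17, chr11:3488284-3499350, plus strand), a secreted phospholipase A2 of the bee venom type, was nearly level among controls. It read 2.26, 3.30, 4.94 and 1.32 TPM in experimental libraries, against 12.1, 11.1, 10.4 and 12.2 TPM in control libraries. Controls differed by no more than 1.17-fold from highest to lowest, while Pnpla5 spanned 4.6-fold among the same controls. The experimental mean was 2.96 ± 1.55 TPM and the control mean 11.5 ± 0.85 TPM (SD, n = 4 each), 3.88-fold lower with a log2(TPM + 1) change of -1.74 (SE 0.27). Its 3′ end overlaps Inpp5j on the other strand, a gene listed at 0 in every library. The 2 genes most like Pla2g3 were Smpd1, which encodes acid sphingomyelinase (r = 0.987), and F3, the tissue factor gene (r = 0.986). Smpd1 read 35.2, 48.6, 53.4 and 29.2 TPM in experimental libraries and 124, 122, 126 and 156 TPM in controls.

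Pnpla3 (ENSMUSG00000041653.5, chr15:84167837-84187236, plus strand) encodes a lipase and transacylase of triglycerides and retinyl esters. It stood at 17.8, 9.83, 25.8 and 28.7 TPM in experimental libraries, against 31.2, 26.6, 37.5 and 44.7 TPM in control libraries. Experimental library 4 lay above control library 2, so the groups overlapped. The means were 20.5 ± 8.50 TPM in experimental and 35.0 ± 7.86 TPM in control libraries (SD, n = 4 each). Pnpla3 and Pnpla5 lie 44.7 kb apart on chromosome 15 on opposite strands, and Pearson's r between them over the 8 libraries was 0.376. The genes most like Pnpla3 were 0610030E20Rik (r = 0.991) and Man1b1, a mannosidase gene of glycoprotein quality control (r = 0.988).

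Pla2g2e (ENSMUSG00000028751.13, chr4:138877942-138882817, plus strand) is a secreted phospholipase A2 known in mouse from hair follicles. Its values were 81, 8, 32.7 and 53.3 TPM in experimental libraries and 20.8, 57.2, 140.4 and 147 TPM in control libraries. The groups overlapped widely, with a 10.1-fold span in experimental and a 7.09-fold span in control libraries. Hair follicle markers, 11 of 11 measured with a lower mean in experimental libraries, summed to between 1503 and 10946 TPM there and to between 5995 and 45297 TPM in controls. Per 1000 TPM of those markers Pla2g2e was at 6.48 ± 2.12 TPM in experimental and 5.23 ± 2.92 TPM in control libraries (SD, n = 4 each), with overlap. The log2(TPM + 1) change was -1.08 (SE 0.74), which became -2.09 when control libraries 1 and 2 were left out and -0.06 when control libraries 3 and 4 were. The part of hair follicle content was not tested. Gm40460 (r = 0.988) and Gm45618 (r = 0.987) were the genes most like Pla2g2e, and Gm40460 read 62.9, 1.67, 13.7 and 35.7 TPM in experimental libraries and 4.19, 33.5, 129 and 218 TPM in controls.

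Pla2g2f (ENSMUSG00000028749.7, chr4:138750533-138757626, minus strand) is a secreted phospholipase A2 known in mouse from the suprabasal epidermis, and it was by far the most abundant of the 9 genes. It stood at 810.2, 721, 890.0 and 864 TPM in experimental libraries, against 479, 458, 523 and 484 TPM in control libraries. Libraries within a group stayed close together, and the lowest experimental library was above the highest control. The means were 821 ± 74.6 TPM in experimental and 486 ± 27.2 TPM in control libraries (SD, n = 4 each), a 1.69-fold higher level and a log2(TPM + 1) change of 0.75 (SE 0.16). Pla2g2f made up between 88.6% and 95.9% of the summed TPM of 11 secreted phospholipase A2 genes in experimental libraries and between 73.1% and 88.3% in controls. This share also depends on Pla2g2e, which made up 1.06% to 8.86% in experimental libraries and 3.83% to 22.3% in controls. Among controls the Pla2g2f share was lowest in libraries 3 and 4, where that of Pla2g2e was highest. The sum of the 11 genes was 752 to 950.3 TPM in experimental libraries and 543 to 692 TPM in controls.

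Suprabasal markers were also higher, with 4 of 6 having a higher mean in experimental libraries, although no single one passed the test. Per 1000 TPM of suprabasal markers Pla2g2f was at 11.5 ± 1.37 TPM in experimental and 10.5 ± 2.54 TPM in control libraries (SD, n = 4 each), and the groups overlapped. Per 1000 TPM of 8 granular layer markers it was at 15.5 ± 3.68 TPM in experimental and 11.1 ± 2.10 TPM in control libraries, again with overlap. The part of the share of upper-layer cells was not tested. Rhbg, an ammonium transporter gene (r = 0.990), and Blmh, the bleomycin hydrolase gene involved in breaking down filaggrin (r = 0.986), were the 2 genes most like it.

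Pla2g4e (ENSMUSG00000050211.14, chr2:120166412-120245335, minus strand) encodes a cytosolic enzyme of the phospholipase A2 family that works as a calcium-dependent N-acyltransferase. Its levels were 11.7, 12.6, 18.2 and 20.2 TPM in experimental libraries, against 9.04, 6.81, 6.66 and 6.29 TPM in control libraries. Every experimental library was above every control, and the experimental mean of 15.7 ± 4.16 TPM was 2.17-fold the control mean of 7.2 ± 1.25 TPM (SD, n = 4 each). Pearson's r with Pla2g2f was 0.920 over the 8 libraries, which again includes the difference between groups. Per 1000 TPM of granular markers it was at 0.301 ± 0.130 TPM in experimental and 0.166 ± 0.0473 TPM in control libraries, with overlap. Med4, a Mediator subunit gene (r = 0.988), and Stard4, a sterol transport gene (r = 0.973), were most like it.

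Over the 9 genes, the groups did not overlap for 7, which were 5 lower and 2 higher in experimental libraries. Over all 10682 genes tested this held for 12.6%, made up of 9.94% lower and 2.7% higher. Aadacl3 is among the 7 but not among the genes tested. In the limma fit across all genes, with adjusted p under 0.05, 6 of the 8 tested members passed, against 2.46% of all genes. Since the list was drawn up from this contrast, the count is a description of that choice and nothing is read from it. It was 1 without experimental library 1, 3 or 4 or without control library 2, it was 3 without experimental library 2 or control library 3, and it was 0 without experimental libraries 2 and 4. The median log2 change of all genes was -0.18, and centring each library on its median moved it to 0.03. With centring the members' log2 changes ran from -1.97 for Aadacl4 to 1.21 for Pla2g4e, with no change of sign among the 8. The authors' deposited table, which lists lower genes only, held 5 of the 9, with log2 fold changes of -2.26 for Pnpla5 (SE 0.43), -2.03 for Aadacl4 (SE 0.47), -1.84 for Ces4a (SE 0.44) and -1.76 for Pla2g3 (SE 0.41) beside that of Aadacl3.

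Genes next to the members in the genome differed in direction. In the Pla2g2 cluster of chromosome 4, Pla2g2d, a secreted phospholipase known from dendritic cells in mouse, lies 18.1 kb from Pla2g2f and rose. It read 5.88, 3.78, 4.56 and 5.49 TPM in experimental libraries, against 2.87, 1.84, 1.65 and 1.44 TPM in control libraries (log2 change 1.02, SE 0.20, limma adjusted p = 0.0265). Pla2g5, between Pla2g2d and Pla2g2e, averaged 7.07 ± 1.82 TPM in experimental and 12.3 ± 1.87 TPM in control libraries (SD, n = 4 each) and did not pass (limma adjusted p = 0.0907). Pla2g2c, on the other side of Pla2g2f, was listed at 0 in every library. Langerhans cell and macrophage markers had a lower mean in experimental libraries for 6 of 6, summing to between 260.4 and 533 TPM there and between 192 and 748 TPM in controls, and their part was not tested. Pla2g12a, a secreted phospholipase gene on chromosome 3, averaged 8.05 ± 1.34 TPM in experimental and 9.66 ± 5.14 TPM in control libraries (limma adjusted p = 0.887).

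In the Pla2g4 cluster of chromosome 2, Pla2g4b fell while Pla2g4e stood higher. Pla2g4b, a cytosolic phospholipase gene, read 4.01, 3.03, 4.94 and 5.08 TPM in experimental libraries, against 9.06, 10.8, 12.8 and 21.2 TPM in control libraries (log2 change -1.41, SE 0.26, limma adjusted p = 0.0219). It overlaps the annotated readthrough gene Gm28042, so the division of reads between them is uncertain. Pla2g4f, 54.6 kb from Pla2g4e on its other side, averaged 26.6 ± 9.22 TPM in experimental and 25.8 ± 2.80 TPM in control libraries (SD, n = 4 each; limma adjusted p = 0.977).

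In the Aadacl cluster of chromosome 4, Aadacl3 and Aadacl4 lie 150 kb apart, and the listed relatives around them were of low level. Gm13124, Aadacl4fm2 in RefSeq, averaged 1.75 ± 0.343 TPM in experimental and 2.97 ± 1.27 TPM in control libraries (SD, n = 4 each; limma adjusted p = 0.373). Gm436, Aadacl4fm4 in RefSeq, was listed at 0 in all 4 experimental libraries and in controls 3 and 4, and read 3.80 and 1.96 TPM in controls 1 and 2. Gm438, Aadacl4fm5 in RefSeq, was listed at 0 in experimental libraries 1 to 3 and lay just above 1 TPM in the fourth, against 3.18, 2.52, 1.01 and 1.97 TPM in controls (limma adjusted p = 0.188). The authors' deposited table listed both Gm438 (log2 fold change -1.27, SE 0.35) and Gm436 (-3.03, SE 0.90) as lower. Gm13178, a further coding gene between Gm436 and Gm438, lies 79.8 kb from Aadacl4 and was not counted among the relatives. It averaged 1.56 TPM in experimental and 13.8 TPM in control libraries. Its log2 change of -2.10 (SE 0.58) was near that of Aadacl4, at -2.18, but did not pass (limma adjusted p = 0.0938). Reads that match several genes of such a family can be split in counting, so the levels of these low genes are uncertain.

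**Figure D3:**
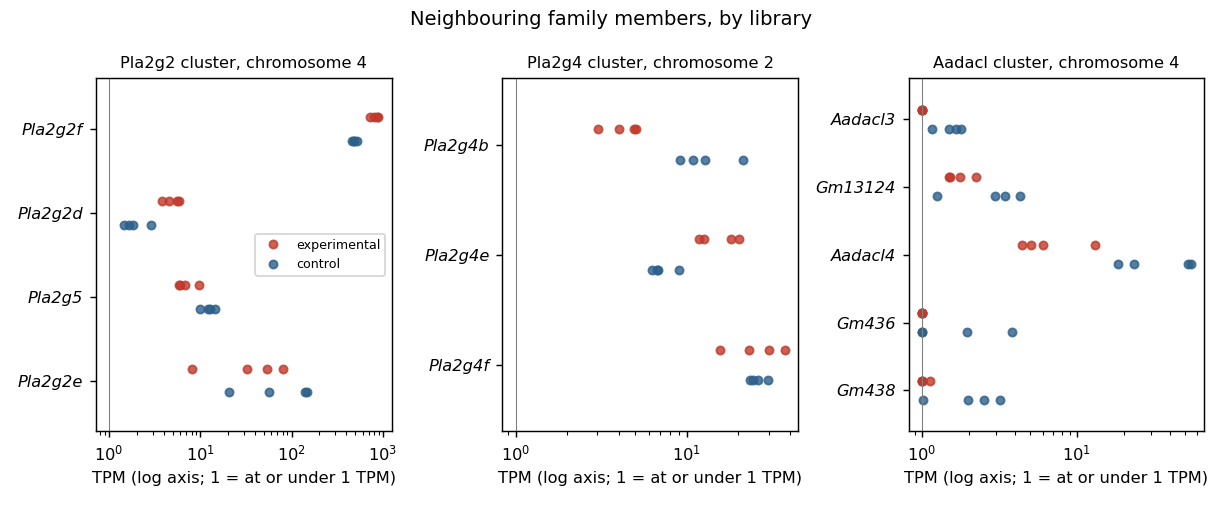
TPM (horizontal log axes, 1 standing for entries at or under 1 TPM) of neighbouring family genes in each experimental (red, upper row of each gene) and control (blue, lower row) library. Pla2g2f and Pla2g2d lay higher in experimental libraries and Pla2g5 lower, Pla2g4e lay higher and Pla2g4b lower. Aadacl4 was the only gene of its cluster drawn here above 5 TPM, but Gm13178, with a control mean of 13.8 TPM, was not drawn.

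Other lipid hydrolases and the enzymes that use their products were taken from 5 family lists that exclude the 9 genes. Of 71 tested relatives 3 rose and 4 fell, which is 9.86% against 2.46% of all genes, where 0.917% rose and 1.54% fell. Because the lists were drawn up with earlier results of these data known, nothing is read from that share. The authors' deposited table of 748 lower genes held 11 relatives, and nothing is read from that count either. Among them were Pla2r1, Proca1 and Napepld, which did not enter the limma fit. The median log2 change of the 71 was -0.06, beside -0.18 for all genes. Among 21 lipases and cofactors 1 rose and 1 fell. Abhd6, a monoacylglycerol lipase, rose to 31.1 ± 5.71 TPM in experimental libraries, against 17.2 ± 0.732 TPM in controls (SD, n = 4 each), and limma gave a log2 change of 0.80 (SE 0.17, adjusted p = 0.042). Plin2, which coats lipid droplets, fell to 30.6, 27.2, 15.5 and 23.2 TPM in experimental libraries, against 94.5, 93.6, 48.8 and 39.1 TPM in controls (log2 change -1.41, SE 0.32, limma adjusted p = 0.0498). Plin2 did not pass with a pseudocount of 0.1 TPM or without the variance trend. Its controls stood in the same 2 pairs as those of Pnpla5, Aadacl4 and Ces4a. Lipm, an acid lipase of the granular layer, had the highest mean of the list and did not pass, at 220.2 ± 32.9 TPM in experimental and 170.5 ± 50.8 TPM in control libraries. Lipn, another epidermal acid lipase, averaged 68.5 ± 23.9 TPM in experimental and 37.1 ± 13.4 TPM in control libraries (limma adjusted p = 0.162). Abhd5, the cofactor of patatin-like lipases, averaged 63.9 ± 6.46 TPM in experimental and 47.8 ± 3.93 TPM in control libraries (limma adjusted p = 0.2).

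Of 11 tested Aadac and carboxylesterase genes 1 passed in limma. The authors' deposited table, which lists lower genes only, held Gm5538 and further genes of this list. They were Gm438 and Gm436 of the Aadacl cluster, C130079G13Rik (log2 fold change -0.70, SE 0.23) and Ces1d (-3.63, SE 0.71). Gm436 and Ces1d did not enter the limma fit. Gm5538, the Aadacl2fm2 gene on chromosome 3 that most resembled Aadacl4 and Ces4a, fell to 4.14, 9.36, 3.87 and 5.69 TPM in experimental libraries, against 36.9, 34.4, 15.9 and 16.2 TPM in control libraries (log2 change -1.95, SE 0.34, limma adjusted p = 0.0178). Of the carboxylesterase genes beside Ces4a, Ces3b, Ces3a and Ces2h were listed at 0 in every library. Ces2g, 162 kb away, averaged 106 ± 21 TPM in experimental and 91.2 ± 12.1 TPM in control libraries (SD, n = 4 each; limma adjusted p = 0.582). Aadac itself read 28.4 ± 1.99 TPM in experimental and 29.1 ± 18.6 TPM in control libraries (limma adjusted p = 0.819). Esd, a cytosolic esterase gene, averaged 34.3 ± 1.86 TPM in experimental and 31.9 ± 20.6 TPM in control libraries and did not pass (limma adjusted p = 0.684).

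Of 16 cytosolic and lysosomal phospholipase genes 2 fell, Pla2g4b and Pla2g16. Pla2g16, also named Plaat3, encodes a phospholipase and acyltransferase abundant in fat tissue. It fell to 4.04, 5.46, 8.09 and 6.23 TPM in experimental libraries, against 16.1, 16.3, 16.7 and 18.1 TPM in control libraries (log2 change -1.39, SE 0.20, limma adjusted p = 0.0077). Like Pla2g3 it was nearly level among the controls, at 16.8 ± 0.905 TPM (SD, n = 4). The list's most abundant gene, Plbd1, of the phospholipase B family, averaged 162 ± 35.3 TPM in experimental and 146 ± 48.6 TPM in control libraries (limma adjusted p = 0.762). Gde1, a glycerophosphodiesterase gene, averaged 31.0 ± 3.74 TPM in experimental and 46.9 ± 10.3 TPM in control libraries (limma adjusted p = 0.153). Gdpd3, of the same enzyme family, averaged 31.2 ± 13.2 TPM in experimental and 40.9 ± 29.8 TPM in control libraries (limma adjusted p = 0.876).

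Among 20 eicosanoid and lipoxygenase enzymes 1 rose. Ptges, the inducible prostaglandin E synthase, rose to 39.1 ± 4.06 TPM in experimental libraries, against 21.7 ± 1.67 TPM in controls (SD, n = 4 each), and limma gave a log2 change of 0.82 (SE 0.15, adjusted p = 0.0226). Alox12b, the barrier lipoxygenase, averaged 211 ± 31.4 TPM in experimental and 132 ± 8.71 TPM in control libraries and did not pass (limma adjusted p = 0.066), although every experimental library was above every control. Ptgs1, cyclooxygenase 1, averaged 127 ± 28.8 TPM in experimental and 72 ± 16.9 TPM in control libraries (limma adjusted p = 0.0999). Sdr9c7, a dehydrogenase gene of barrier lipid synthesis, averaged 129 ± 29.5 TPM in experimental and 88.7 ± 16.6 TPM in control libraries (limma adjusted p = 0.241). With centred values Alox12b, Naaa and Ptgs1 passed as well, and Pla2g4b and Plin2 did not. Leaving out 1 library left Pla2g16 past the threshold each time. Without experimental library 1, 3 or 4 it was the 1 relative that passed, without control library 3 there were 2, without control library 2 there were 3, and without control library 4 there were 13.

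**Figure D4:**
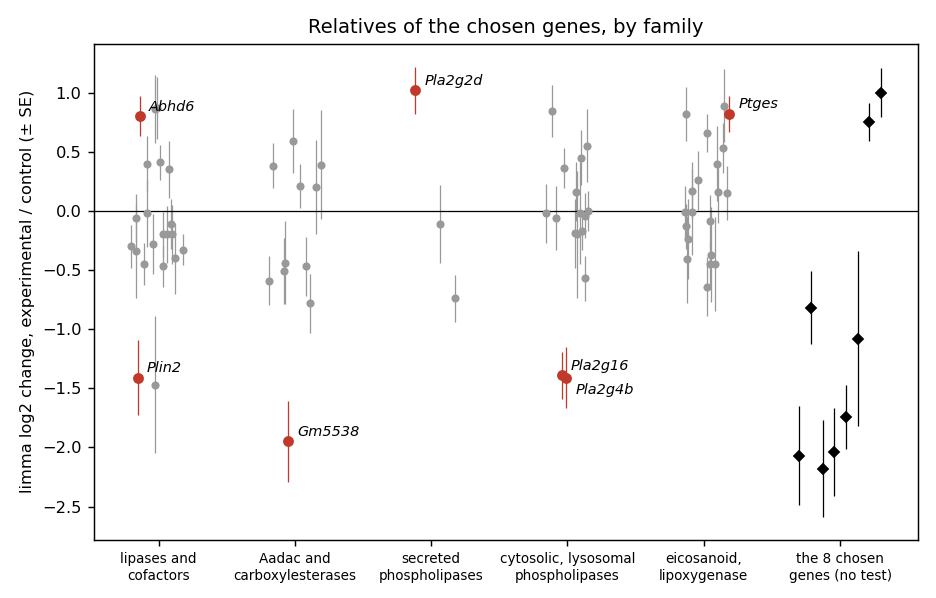
Log2 change on the log2(TPM + 1) scale, experimental over control, with its SE (vertical axis) for 71 relatives in 5 family lists and, in black at the right, for the 8 chosen genes that entered the fit and carry no test. Red points passed adjusted p under 0.05 and are named; 3 rose and 4 fell.

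The deposited MAJIQ table of changed splicing, which covered 236 genes, held 0 of the 9 genes and 1 of their relatives. In the authors' deposited table, Mgll, the monoacylglycerol lipase gene, skipped a cassette exon of 84 bases (chr6:88813880-88813963, plus strand), whose ends match an annotated exon of GENCODE M21 (GRCm38). PSI is the fraction of splicing at a site that takes a given junction. That of the junction into this exon was 0.021 in experimental and 0.681 in control epidermis, and that of the skipping junction was 0.938 in experimental and 0.253 in control epidermis. These PSI values combine the libraries of a group, so they have no spread between libraries. The level of Mgll was 23.2, 33.1, 10.6 and 20.9 TPM in experimental libraries and 133, 111, 43.0 and 17.8 TPM in control libraries, and it did not pass (limma adjusted p = 0.224).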

How the data were processed

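RNA from the back-skin epidermis of 4 experimental and 4 control pups was sequenced. Tools listed in the submitters' processing notes are Salmon 0.14.0, STAR, DESeq and SAMtools 1.9, with GRCm38 and mm10 as builds. Values in the deposited expression table were taken to be log2 TPM, where a 0 stands for 1 TPM or less. Over 392 genes in 4 bins of level, the mean count signal per kilobase in the authors' deposited DESeq2 table, divided by TPM, was 0.99 in the lowest bin relative to the highest under this reading, against 1.43 if 1 had been added before the logarithm. That deposited table also gives log2 fold changes, a Wald score and p-values, and the deposited MAJIQ table gives PSI as a fraction per group.

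Of 21690 identifiers 21662 matched a symbol, 21227 of them with the same version. Columns name a group but no labelled replicate, so libraries were not paired. The 10682 genes averaging 1 TPM or more, with a 0 counted as 0, were fitted as log2(TPM + 1), with a 0 then set to 1 TPM, in limma 3.58.1 (R 4.3.3; group only, trended variance, two-sided, Benjamini-Hochberg adjusted p under 0.05), so changes of low genes are understated. The design had assumed values of TPM or log2(TPM + 1). The fit was tested on simulated data. Python 3.11.15 with pandas 2.3.3 and matplotlib 3.10.9 made counts and figures.

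The 9 genes, the family and marker lists and the alternatives were chosen with earlier results of these data known. Named besides the 9 were relatives past the threshold, the most abundant tested relatives of each list, the 2 genes of highest correlation with each member, family neighbours, with Esrp1 and Esrp2. Mgll, Inpp5j, Gm13178, Naaa and Krt15 were added after their values were seen. So were C130079G13Rik, Ces1d, Pla2r1, Proca1, Napepld, Elovl3 and Mc5r. The motifs were chosen after the expression values were known. Alternatives were other pseudocounts and filters, centring, quantile normalization, no trend, and leaving out libraries.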

Additional observations from a re-analysis of the deposited data

How the results depend on the processing

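The log2 changes of the 8 fitted members, which were chosen on this contrast, kept their sign under every alternative run. That of Pla2g2e shrank to -0.06 without control libraries 3 and 4. Pnpla5 ranged from -2.84 without control libraries 3 and 4 to -1.30 without control libraries 1 and 2, and Pla2g2f reached 0.96 with centring and 0.87 with quantile normalization. The counts were less stable. All genes past the threshold numbered 263 (98 higher, 165 lower), 385 with centring (283 higher, 102 lower), 386 with quantile normalization (269 higher, 117 lower) and 85 to 578 when 1 library was left out; relatives then numbered 1 to 13. With no filter on low values 119 genes and 3 relatives passed. Without experimental libraries 2 and 4, which have the highest mitochondrial share, 15 genes and 0 relatives passed in limma (15 relatives at an unadjusted p under 0.05). Without control libraries 3 and 4, 2595 genes and 28 relatives passed, and without control libraries 1 and 2, 544 genes. The count of members past the threshold, which supports nothing because they were chosen on this contrast, was 6, with 1 to 6 when 1 library was left out, 1 with no filter, 3 without control libraries 1 and 2, and 0 without experimental libraries 2 and 4 (7 at an unadjusted p under 0.05 in limma). The causes were not tested. No paired analysis was possible because the columns carry no replicate number of the labels. The deposited expression values are named as not corrected for batch, and the labels assign no library to a batch. TPM keeps no depth, so no counting error could be given, and entries at or under 1 TPM cannot be ordered.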
